A study of Mus musculus with 2 samples.

Results

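The mitochondrial genome of the mouse is a small circle that carries its own set of genes, named here by the prefix mt-. The 37 gene rows whose symbol starts with mt- were taken from the 55536 gene rows quantified on GENCODE release M21, the gene annotation used with the mm10 genome. They comprise 13 mRNAs, 2 rRNAs and 22 tRNAs. The RNA came from activated regulatory T cells, a class of CD4 T cells that hold immune responses in check. The labels name a male mouse of 4 months from the cross Foxp3CreERT2 x Rosa26YFP, in which a tamoxifen-inducible Cre is driven from Foxp3, and a bone marrow haematopoietic cell as the origin. They give no tissue of isolation. Sorting and activation of the cells were not described in the sources used here. Libraries 1 and 2 are technical replicates 1 and 2 of biological replicate 1, both enriched for RNA with poly(A) tails and made from fragments of 100 to 300 bases. There is therefore 1 group and no second condition, and each ± value below is the SD over n = 2 technical libraries, which does not cover the spread between animals.

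Mitochondrial DNA is transcribed from both strands into long precursor RNAs. Most precursors are cut at the tRNAs that lie between the other genes, and most of the released mRNAs receive short poly(A) tails. The mRNAs encode core subunits of complexes I, III and IV of the respiratory chain and of complex V, the ATP synthase, while all other subunits are made from nuclear genes. Stretches of mitochondrial DNA have also been copied into nuclear chromosomes, and such copies can share reads with the genes they came from.

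The estimated reads on genes numbered 15076048 in library 1 and 14635787 in library 2. The 9 T cell and regulatory T cell marker genes lay between 20.9 and 2761 TPM, a measure of transcript abundance per length, and Foxp3, the defining transcription factor of these cells, stood at 23.8 TPM in library 1 and 20.9 TPM in library 2. Of 20 markers of B, myeloid, cytotoxic, erythroid, platelet and neutrophil cells, 12 were under 1 TPM in both libraries, and Cd14, Ncr1, Ppbp and S100a9 were among those at 0 in both. The highest of the 20 was the haemoglobin gene Hba-a2 at 6.9 TPM, and their summed level was 22.4 TPM in library 1 and 24.6 TPM in library 2.

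The genes are packed end to end, and neighbours meet or overlap over short stretches. The longest overlap, of 43 bases, is shorter than the reads of 50 bases, so no read lies wholly inside an overlap. The 37 rows sum to 15441 bases. Of the 36 junctions between neighbouring rows, 9 overlap, 12 abut with no base between them and 15 are separated, by at most 32 bases. The longest overlap joins mt-Atp8 and mt-Atp6, both subunits of the ATP synthase, whose 43 shared bases are in capitals in the first line. In the second line the 7 bases shared by the complex I genes mt-Nd4l and mt-Nd4 are in capitals. Both are on the plus strand and were read from the GENCODE M21 transcripts (mm10).
mt-Atp8 and mt-Atp6, chrM:7918-7969: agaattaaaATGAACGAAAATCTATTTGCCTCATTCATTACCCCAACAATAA
mt-Nd4l and mt-Nd4, chrM:10158-10173: cctactacaATGCTAA
On opposite strands, mt-Nd5 and mt-Nd6 share 14 bases. The sources used here do not state whether the libraries kept the strand, and reads from opposite strands cannot be told apart.

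Several mRNA genes stop before their stop codon is complete, and the poly(A) tail supplies the missing bases in the RNA. Of the 13 mRNA genes, 8 end in TAA, 2 end in TAG (mt-Nd1 and mt-Nd2) and 3 end in a lone T (mt-Co3, mt-Nd4 and mt-Cytb). The last 18 bases of these 3 genes are shown with the stop bases in capitals, followed by mt-Atp6 as a gene that carries its whole stop codon.
mt-Co3, chrM:9373-9390: tttattgatgaggatctT
mt-Nd4, chrM:11527-11544: ttacaggcctgacaataT
mt-Cytb, chrM:15271-15288: tactaaaattatatccaT
mt-Atp6, chrM:8590-8607: ctacatgataatacaTAA
The 3 genes with the lone T were not alike in level: by deposited TPM, mt-Co3 was the highest mRNA, mt-Cytb the sixth and mt-Nd4 the eighth. With the reads of nuclear copies added mt-Atp6 ranked above mt-Co3. A start codon other than ATG is found in mt-Nd1 (GTG), mt-Nd2 (ATA), mt-Nd3 (ATT) and mt-Nd5 (ATC), all subunits of complex I.

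The 37 genes accounted for 3.34% of library 1's gene reads and 3.02% of library 2's. The mRNAs accounted for 2.24% in library 1 and 1.98% in library 2. The rRNAs took 1.09% and 1.03%, and the tRNA rows took 0.0128% and 0.00862%, in libraries 1 and 2. Within the mitochondrial reads the split was nearly the same in both libraries. mRNAs made up 66.3% ± 1.05, rRNAs 33.3% ± 1.12 and tRNAs 0.334% ± 0.0689. Of the mRNA reads, complex IV, the cytochrome c oxidase, held 52.7% ± 0.0829, complex I held 19.8% ± 0.0354, complex V held 15.2% ± 0.245 and complex III held 12.4% ± 0.126. These shares rest on the deposited division of reads between the genes and their nuclear copies. With the reads of copies at 99% identity or more added, complex V held 20.3% ± 0.563 and complex I 16.5% ± 0.270, so the order of these 2 turned. In a ranking of all rows by mean TPM, 2 of the first 10, 5 of the first 20 and 8 of the first 50 were mitochondrial.

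Both rRNAs of the mitochondrial ribosome were abundant in these poly(A)-enriched libraries. mt-Rnr2, the RNA of the large subunit, ranked seventh of all rows, with 7515 TPM in library 1 and 7497 TPM in library 2. mt-Rnr1, the RNA of the small subunit, had 1871 TPM in library 1 and 1518 TPM in library 2. The libraries were close for mt-Rnr2 and further apart for mt-Rnr1, and mt-Rnr2 lay 4.48 ± 0.651 times above mt-Rnr1. Both rRNA genes hold A-rich stretches, shown here because the libraries were selected on runs of A. Of the 20 bases richest in A, 15 are A in mt-Rnr1 and 16 in mt-Rnr2, as capitals mark.
mt-Rnr1, chrM:725-744: AAAAgAAtcAAAcAtAAAAA
mt-Rnr2, chrM:1488-1507: AAAAAAAcAAcAAAAtcAAA
The same measure ran from 8 to 14 in the 13 mRNA genes and from 7 to 12 in the 22 tRNA genes. Mammalian mitochondrial rRNAs are also known to carry short A tails. Whether either feature bears on the level of these rows was not tested.

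The 13 mRNAs spanned a 14.8 ± 3.15-fold range of deposited TPM, with complex IV and V genes at the top and most complex I genes at the bottom. mt-Co3, a core subunit of cytochrome c oxidase, had 6138 TPM in library 1 and 6503 TPM in library 2. The other core subunits of that enzyme were lower. mt-Co1, its catalytic subunit, had 4763 TPM in library 1 and 3743 TPM in library 2. mt-Co2, which receives electrons from cytochrome c, had 4314 TPM in library 1 and 4164 TPM in library 2. Both values of mt-Co2 lay between those of mt-Co1, so the order of these 2 differed between the libraries.

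The ATP synthase genes stood close to each other. mt-Atp6, the subunit that forms the proton path, had 5198 TPM in library 1 and 4882 TPM in library 2. mt-Atp8, whose row shares 43 bases with it, had 5159 TPM in library 1 and 4571 TPM in library 2. Their ranges over the libraries overlapped, but mt-Atp6 was higher in both, by a ratio of 1.04 ± 0.0427. mt-Cytb, the cytochrome b of complex III, had 3096 TPM in library 1 and 2770 TPM in library 2, below all complex IV and V genes in both libraries.

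Of the 7 complex I genes, mt-Nd1 was the highest, with 1796 TPM in library 1 and 1665 TPM in library 2. mt-Nd4 followed at 987 TPM in library 1 and 944 TPM in library 2. These 2 did not overlap each other or any neighbour in the order. mt-Nd5 had 713 TPM in library 1 and 632 TPM in library 2. mt-Nd2 had 641 TPM in library 1 and 556 TPM in library 2, and mt-Nd3 had 606 TPM in library 1 and 447 TPM in library 2. mt-Nd6, the only mRNA gene on the minus strand, had 541 TPM in library 1 and 475 TPM in library 2. Its gene faces the plus-strand precursor, and which strand its reads came from was not tested. From mt-Nd5 down, the range of each gene over the libraries overlapped that of the next. Within each library the order was the same apart from mt-Nd3 and mt-Nd6, which changed places. Over all 13 mRNAs, 10 of the 12 neighbouring pairs had the same order in both libraries. mt-Nd4l was the lowest, with 489 TPM in library 1 and 382 TPM in library 2. It shares 7 bases with mt-Nd4, which lay 2.24 ± 0.319 times above it.

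**Figure D1:**
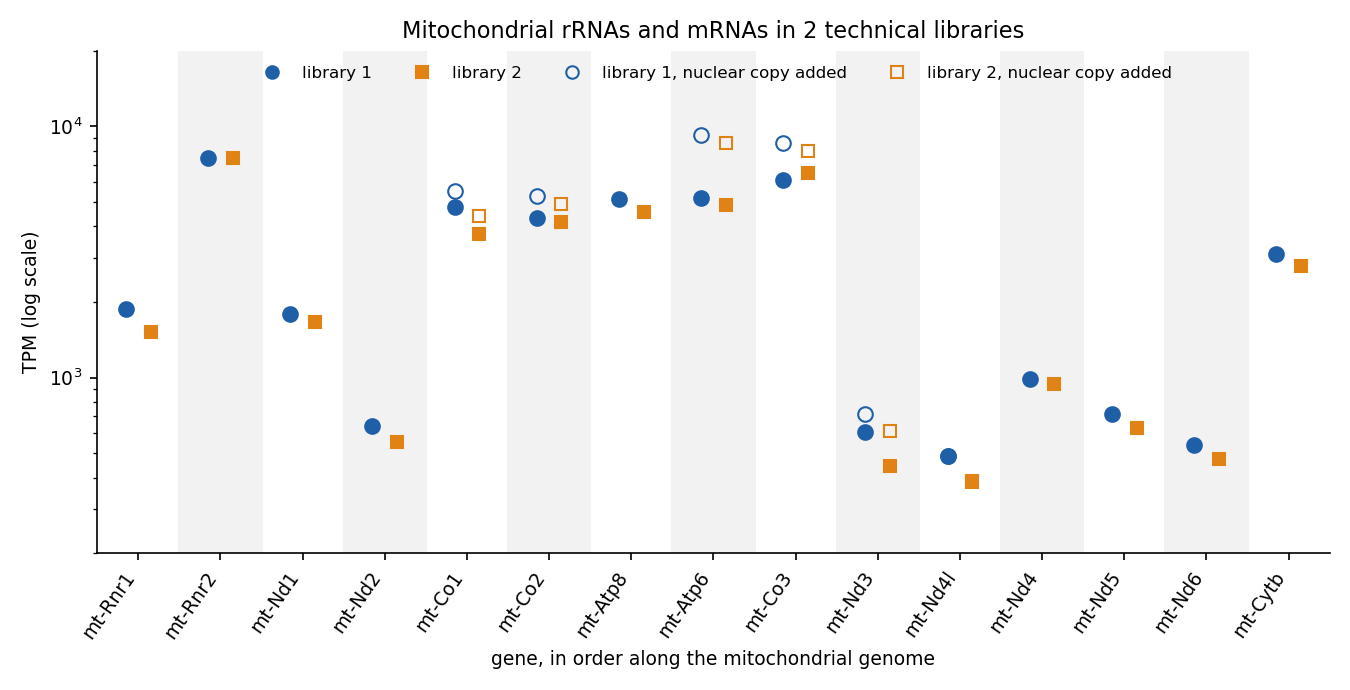
TPM (log scale) of the 2 rRNAs and 13 mRNAs in order along the mitochondrial genome, library 1 as circles and library 2 as squares. Open symbols add the reads of the nuclear copies at 99% identity or more. mt-Rnr2, mt-Co3 and the ATP synthase genes are highest, and adding the copies lifts mt-Atp6 to 9222 TPM in library 1 and 8572 TPM in library 2.

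Reads were also given to copies of these genes in the nuclear genome, and adding them changed part of this order. Among the annotated transcripts, 17 nuclear rows on 7 chromosomes matched a mitochondrial gene at 90% identity or more over at least 100 bases. They held 75665 reads in library 1 and 57331 in library 2, which is 13.1% and 11.5% of the reads of members and copies together. Nearly all of these reads lay on 7 rows at 99% identity or more, which held 75521 reads in library 1 and 57215 in library 2. The other 10 rows held 143 reads in library 1 and 116 in library 2.

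The 7 rows are all on chr1:24611535-24616197, minus strand (mm10), in the order of the mitochondrial genes, and the distance between neighbouring copies equals the mitochondrial distance to within 1 base. The stretch corresponds to mitochondrial bases 6390 to 11042 and holds 11 whole members, 6 mRNA genes and 5 tRNA genes. Gm28661, Gm10925, Gm28437 and Gm10222 have no mismatch over 681 bases of mt-Co2, 678 of mt-Atp6, 783 of mt-Co3 and 294 of mt-Nd4l. Gm28439 has none over the first 876 bases of mt-Nd4 and held 0 reads in both libraries. No annotated copy of mt-Atp8 was found, although its place lies inside the stretch. A single base separates each of the last 2 pairs and is in capitals below. It is A1066T between mt-Co1 and Gm29216, whose match covers the last 483 bases of mt-Co1, and T3C between mt-Nd3 and Gm28438, with positions counted from the first base of the mitochondrial gene and its base first.
mt-Co1, chrM:6390-6405: ggaAttgttttatcca
Gm29216, chr1:24616173-24616188: ggaTttgttttatcca
mt-Nd3, chrM:9459-9473: atTaacctgtacact
Gm28438, chr1:24613105-24613119: atCaacctgtacact

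A read that lies wholly in an identical stretch fits both rows equally well, and the deposited tables divide such reads by estimate. Of the reads on mt-Atp6 and its copy together, the copy was given 43.6% in library 1 and 43.0% in library 2. Of those on mt-Co3 and its copy, the copy was given 28.5% in library 1 and 18.3% in library 2. The split was therefore close between libraries for mt-Atp6 and uneven for mt-Co3. The copy's portion was 18% and 15.3% for mt-Co2, 13.6% and 14.6% for mt-Co1, and 15.4% and 27.1% for mt-Nd3, in libraries 1 and 2. The tables also carry a second estimate, the posterior mean with its SD. For mt-Co3 it gave 45457 reads (posterior SD 2291) in library 1 and 41653 reads (posterior SD 3488) in library 2, against expected counts of 55947 and 55939. The 2 deposited estimates of this gene thus differ by more than either posterior SD. For mt-Co2 the posterior mean was 28758 reads (posterior SD 1710) in library 1 and 26001 (posterior SD 1492) in library 2, against 33976 and 30950. For mt-Atp6 it was 39703 (posterior SD 1794) and 35822 (posterior SD 1792), against 40744 and 36114. The order of the mRNAs given above is by deposited TPM, and whether it holds on the posterior means was not tested.

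The reads of each copy at 99% identity or more were then pooled with its member, a choice made after the data were seen. So pooled, mt-Atp6 averaged 8897 ± 460 TPM and mt-Co3 8269 ± 437 TPM. Their ranges overlapped, but mt-Atp6 was higher in both libraries. mt-Co2 then averaged 5088 ± 245 TPM, mt-Co1 4947 ± 798 TPM and mt-Atp8 4865 ± 415 TPM, each overlapping the next. mt-Atp6 lay 1.79 times above mt-Atp8 in library 1 and 1.88 times in library 2 on this scale, against 1.01 and 1.07 times in the deposited TPM. Genes outside the stretch, such as mt-Cytb, mt-Nd1, mt-Nd5 and mt-Nd6, have the same value on both scales. Copies under 99% identity were not pooled.

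The second deposited gene table, a whole-number count on GENCODE release M4, holds the 13 mRNAs and none of the rRNA or tRNA rows. In it mt-Co2, mt-Atp8, mt-Atp6, mt-Co3 and mt-Nd4l had 0 reads in both libraries, and mt-Nd3 had 13 reads in library 1 and 9 in library 2. These are the 6 mRNA genes that lie whole inside the stretch copied on chromosome 1, and among them are the 3 highest mRNAs of the M21 table. The other 7 mRNAs had from 870 reads (mt-Nd6) to 3085 (mt-Nd5) in library 1 and from 831 (mt-Nd6) to 2992 (mt-Nd5) in library 2.

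Per base of the whole gene those 7 genes had 0.745 (mt-Nd4) to 1.96 (mt-Cytb) reads in library 1 in that table. Divided instead by the bases outside the copies, their counts came to 1.35 to 2.05 reads per base. That division takes all their reads as lying outside the copied bases, which was not tested. The M21 table gave them 6.08 to 57.2 reads per base of the whole gene in library 1. The members took 0.349% of all counts of that table in library 1 and 0.341% in library 2. Nuclear genes also kept a smaller part of their reads there as their M21 count grew. The median was 44.1% for 5897 nuclear genes with 100 to 1000 M21 reads in library 1, 34.4% for 2757 genes with 1000 to 10000, and 4.86% for 169 genes with 10000 or more. For members the same percentage in library 1 ran from 1.63% (mt-Co1) to 27.6% (mt-Nd6) among the 7. No nuclear gene with 100 or more M21 reads exceeded 2.57 reads per base in library 1. The sources used here do not state how that table was counted.

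**Figure D2:**
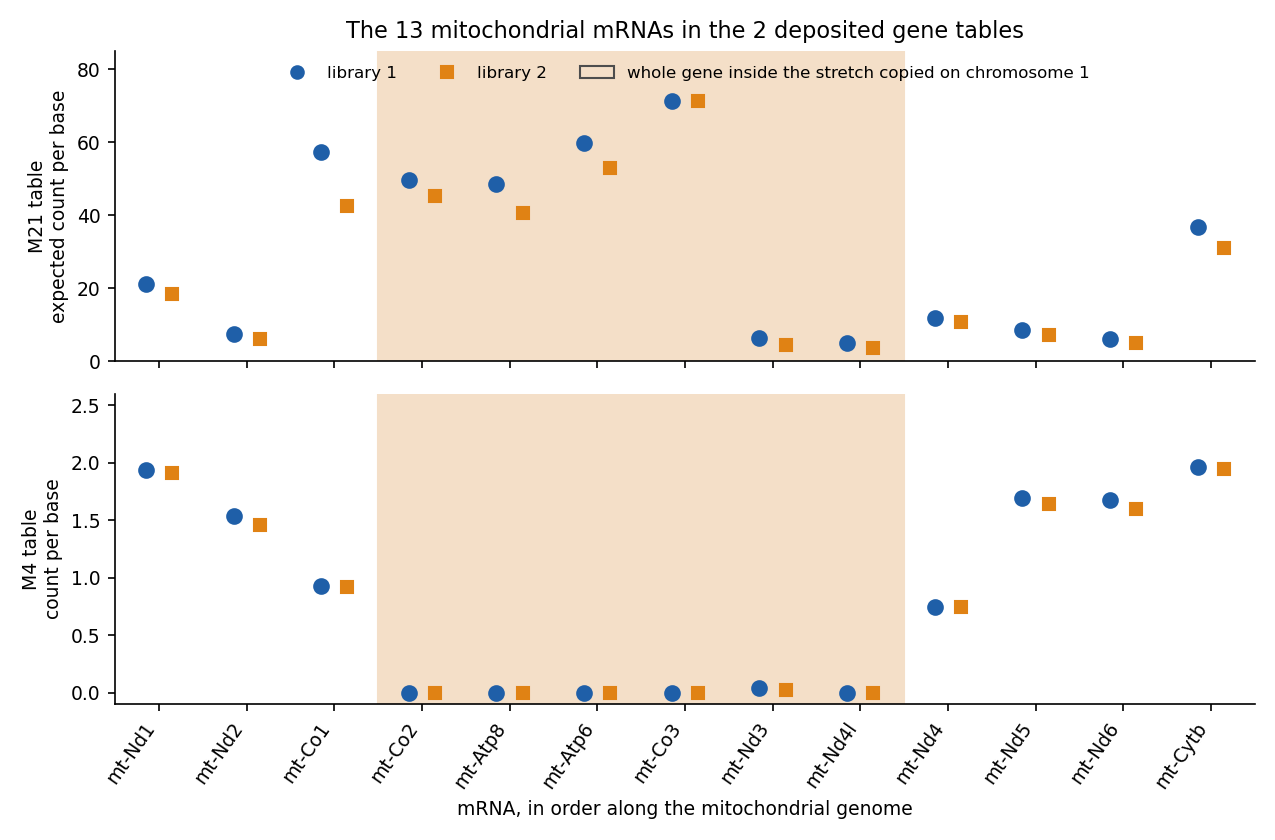
Reads per base of annotated length for the 13 mRNAs in the M21 table (upper panel, expected counts) and the M4 table (lower panel, whole counts), library 1 as circles and library 2 as squares; shading marks the 6 genes that lie whole inside the stretch copied on chromosome 1. The shaded genes are at or near 0 in the M4 table, and mt-Co1 and mt-Nd4, copied in part, lie at 0.931 and 0.745 reads per base in library 1.

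The tRNA rows are barely longer than the reads, which are of 50 bases, and most held few reads. They span 59 to 75 bases, with effective lengths of 10 to 26 bases, so a handful of reads gives a high TPM. Together the 22 rows held 1930 reads in library 1 and 1261 in library 2. mt-Ts1, a serine tRNA, held 83.3% of them in library 1 and 83.6% in library 2. It and mt-Te, the glutamate tRNA, are shown 5′ to 3′ on their own minus strand as the rows with the most reads.
mt-Ts1, chrM:6870-6938: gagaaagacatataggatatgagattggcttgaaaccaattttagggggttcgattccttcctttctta
mt-Te, chrM:14071-14139: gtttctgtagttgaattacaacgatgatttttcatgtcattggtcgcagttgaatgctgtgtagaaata
mt-Ts1 had 1608 reads in library 1 and 1054 in library 2, or 6483 and 4503 TPM, which ranked it fifteenth of all rows. Per base of annotated length it had 23.3 reads in library 1 and 15.3 in library 2, near the median mRNA at 21.1 and 18.5. Its gene lies inside the copied stretch, lies just past the end of mt-Co1 and overlaps it by 3 bases on the opposite strand. In human cells the mRNA of the corresponding oxidase gene is known to run on through the complement of this tRNA.

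The next rows were far below. mt-Te had 122 reads in library 1 and 82 in library 2. mt-Tn, the asparagine tRNA, had 36 reads in library 1 and 27 in library 2, and mt-Tc, the cysteine tRNA, had 37 and 17. Both belong to a run of 4 minus-strand tRNA genes between mt-Nd2 and mt-Co1. mt-Tl1, a leucine tRNA, had 23 reads in library 1 and 20 in library 2, and mt-Tq, the glutamine tRNA, had 26 and 14. mt-Tl1 is the only plus-strand gene among these 6 rows. mt-Tf, mt-Tv and mt-Ts2 had 0 reads in both libraries. For mt-Tf a count of 0 allows up to 12.7 TPM in library 1 and 13.5 TPM in library 2, taken as the TPM of 3 reads, which covers counting error only.

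Reads on tRNA rows differed by strand. The 8 rows on the minus strand held 1869 reads in library 1 and 1213 in library 2, against 61 and 48 on the 14 rows on the plus strand. The minus-strand rows thus held 96.8% of tRNA reads in library 1 and 96.2% in library 2. Without mt-Ts1 they held 81.1% and 76.8%. Summed over both libraries, a minus-strand row had 16 to 2662 reads with a median of 47, and a plus-strand row had 0 to 43 reads with a median of 4.5. Minus-strand tRNA genes face the plus-strand precursor, and which strand their reads came from was not tested.

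**Figure D3:**
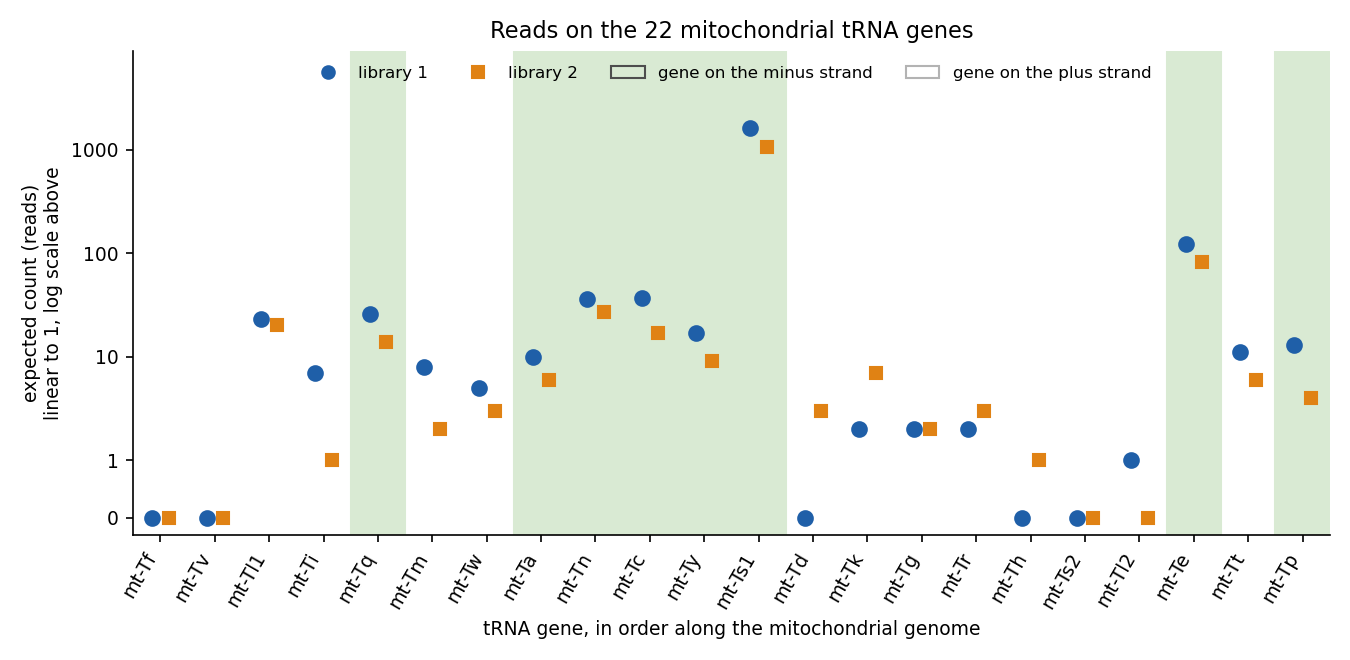
Expected counts on the 22 tRNA rows in order along the mitochondrial genome, library 1 as circles and library 2 as squares, on an axis linear to 1 and logarithmic above; shading marks minus-strand genes. The shaded rows hold most of the reads, led by mt-Ts1 at 1608 reads in library 1 and 1054 in library 2.

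On the TPM scale the mitochondrial subunits stood above the nuclear subunits of the same complexes, least so in complex I. The 7 mitochondrial mRNAs of complex I had a median of 641 TPM in library 1 and 556 TPM in library 2, against 161 and 164 TPM for 36 nuclear subunits. Their log2 ratio was 1.87 ± 0.16, or 3.67-fold. mt-Cytb stood 11.0-fold above the median of 9 nuclear subunits of complex III (log2 3.45 ± 0.06). In complex IV the 3 mitochondrial mRNAs had a median of 4763 TPM in library 1 and 4164 TPM in library 2, against 357 and 340 TPM for 10 nuclear subunits, a log2 ratio of 3.68 ± 0.09 or 12.8-fold. In complex V the 2 mitochondrial mRNAs stood 14.8-fold above the median of 16 nuclear genes (log2 3.89 ± 0.11), and 20.6-fold with copies pooled.

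In complexes III, IV and V no nuclear gene reached the lowest mitochondrial mRNA of its complex by mean TPM. Cox4i1, a regulatory subunit of cytochrome c oxidase, was the highest nuclear subunit of all, at 918 ± 3.14 TPM. In complex I, Ndufa3 at 542 ± 27.2 TPM and Ndufa6 at 463 ± 19 TPM exceeded mt-Nd4l at 436 ± 75.4 TPM, and Ndufa7 had 316 ± 14.4 TPM. The lowest nuclear complex I subunit was Ndufb4 at 46.8 ± 1.46 TPM. In complex III, Uqcrh (731 ± 13.2 TPM), Uqcr10 (390 ± 3.51 TPM) and Uqcrq (372 ± 28.5 TPM) were highest, and Cyc1, the cytochrome c1, was lowest at 91.0 ± 6.35 TPM. In complex IV, Cox6c (558 ± 10.2 TPM) and Cox6b1 (528 ± 51.2 TPM) followed Cox4i1, and Cox5a was lowest at 238 ± 0.170 TPM. In complex V, Atp5e (581 ± 17.5 TPM), Atp5h (543 ± 13.2 TPM) and Atp5l (514 ± 10.2 TPM) were highest, and Atp5g2, a gene for the ring subunit c, was lowest at 39.1 ± 3.75 TPM.

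**Figure D4:**
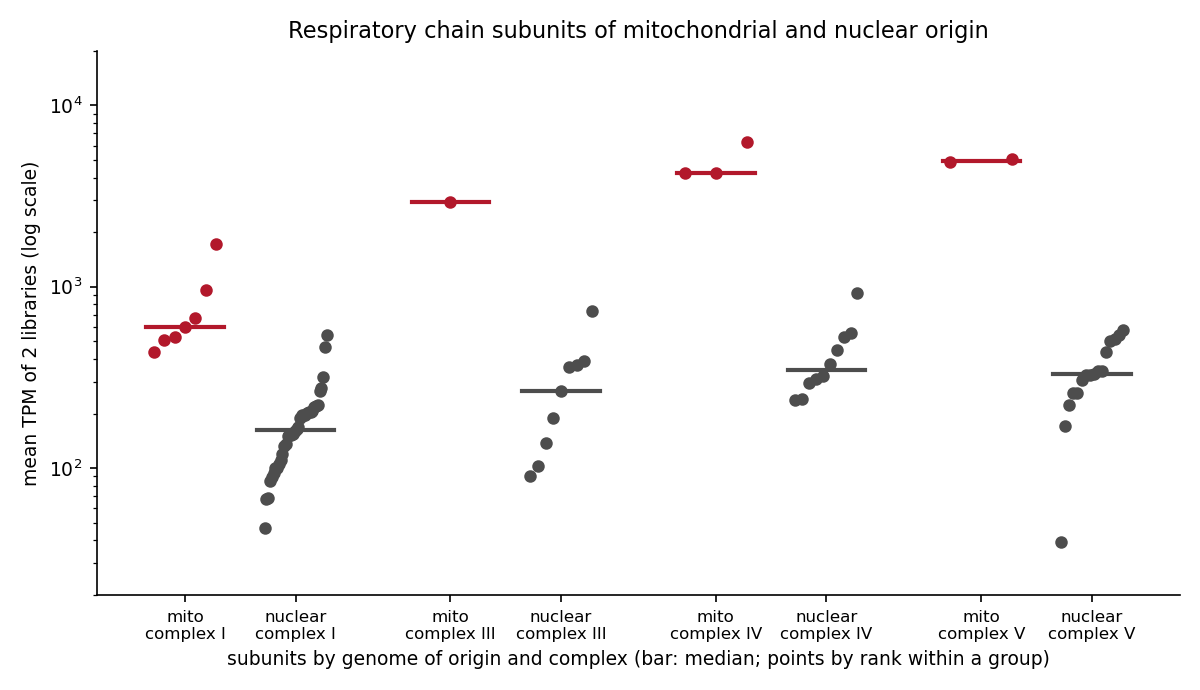
Mean TPM over the 2 libraries (log scale) of respiratory chain and ATP synthase subunits, mitochondrial genes in red left of nuclear genes in grey for each complex; bars are medians and points are ordered by rank. Only in complex I do nuclear genes (2 of 36) lie above the lowest mitochondrial mRNA.

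Nuclear genes that maintain, transcribe and process the mitochondrial genome were all detected at 1 TPM or more in both libraries. Their list medians lay below the lowest mitochondrial mRNA. Of 16 genes of DNA upkeep and transcription, with a median of 16.2 TPM, Ssbp1, the single-strand DNA-binding protein, was highest at 90.5 ± 5.75 TPM. Mterf3, of the transcription termination factor family, had 64.5 ± 7.99 TPM. Tfam, which packages mitochondrial DNA and activates its transcription, had 62.3 ± 4.15 TPM. Twnk, the replicative helicase, was lowest at 4.49 ± 1.90 TPM. Of 29 genes of RNA processing and decay, with a median of 17.2 TPM, Rexo2, an oligoribonuclease, had 170 ± 2.90 TPM. Slirp, which stabilises mitochondrial mRNAs, had 93.2 ± 0.728 TPM, and Hsd17b10, a subunit of mitochondrial RNase P, had 89.5 ± 2.35 TPM. Pde12, which removes A tails, was lowest at 4.17 ± 0.679 TPM. Of 23 genes of tRNA charging, with a median of 11.4 TPM, the row of Lars2, the leucyl-tRNA synthetase, stood apart at 987 ± 134 TPM. It held 41008 reads in library 1 and 46885 in library 2, and whether all of them came from the mRNA of this enzyme was not tested. Kars, which serves both cytosol and mitochondria, had 122 ± 20.1 TPM, Tars2 had 51.4 ± 0.580 TPM and Aars2 was lowest at 1.82 ± 0.382 TPM.

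Libraries 1 and 2 came from the same biological sample, and most mitochondrial genes took a larger share of library 1. Of 17271 genes with 10 or more summed reads, 24.3% passed an exact binomial test, two-sided and adjusted over all of them by Benjamini-Hochberg at 0.05, with 11.6% higher and 12.7% lower in library 1. Of the 37 mitochondrial genes 26 were tested, and 16 were called higher in library 1, 1 was called lower and 9, all tRNAs, were not called. The ratio was positive for 25 of the 26, with a median log2 ratio of 0.35, against 0.01 over all genes tested. The median was 0.22 for the 13 mRNAs and 0.78 for the 11 tRNA rows tested. The 9 tRNA rows not called had 10 to 63 summed reads each, so the tRNA median rests on few reads. Among members under the limit of 10 reads the ratios went in both directions. With no filter on counts the median over 34 members was 0.29, against 0.03 over all genes. The binomial test compares the 2 libraries and counts only counting error, so it says nothing of conditions. Deep counts are called often: among 5224 genes with 1000 or more reads 39.5% were called, with a median absolute log2 ratio of 0.11. That median was 0.22 for the 16 members that pass this limit, with 2614 (mt-Nd4l) to 277385 (mt-Rnr2) summed reads. The members were not matched in depth to the 5224 genes.

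Among the mRNAs the log2 ratio of library 1 over library 2 ran from -0.04 in mt-Co3 to 0.48 in mt-Nd3. mt-Nd4l and mt-Co1 followed mt-Nd3, at 0.40 and 0.39. mt-Rnr1 differed by 0.34 and mt-Rnr2 by 0.04 (adjusted p = 4.39e-14, binomial test). The rRNAs were thus both called, at very different sizes. mt-Ts1 differed by 0.57 (adjusted p = 2.38e-21, binomial test) and mt-Te by 0.53 (adjusted p = 0.0480, binomial test), the 2 tRNA rows that were called. The call of mt-Co3 as lower (adjusted p = 1.56e-05, binomial test) turned with the copies: pooled with Gm28437 its log2 ratio was 0.15. Pooled with its copy, mt-Nd3 came to 0.27, below mt-Co1 and mt-Nd4l at 0.37 each. A common dispersion for edgeR could only be estimated with libraries 1 and 2 as 1 group, so it counts the difference under test as noise. Few calls are built into that setting, and it cannot check the calls of the binomial test. With edgeR's exact test at the common dispersion of the 2 libraries (a coefficient of variation of 0.129), no member was called, 2 had an unadjusted p under 0.05, and 1.77% of all genes were called.

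**Figure D5:**
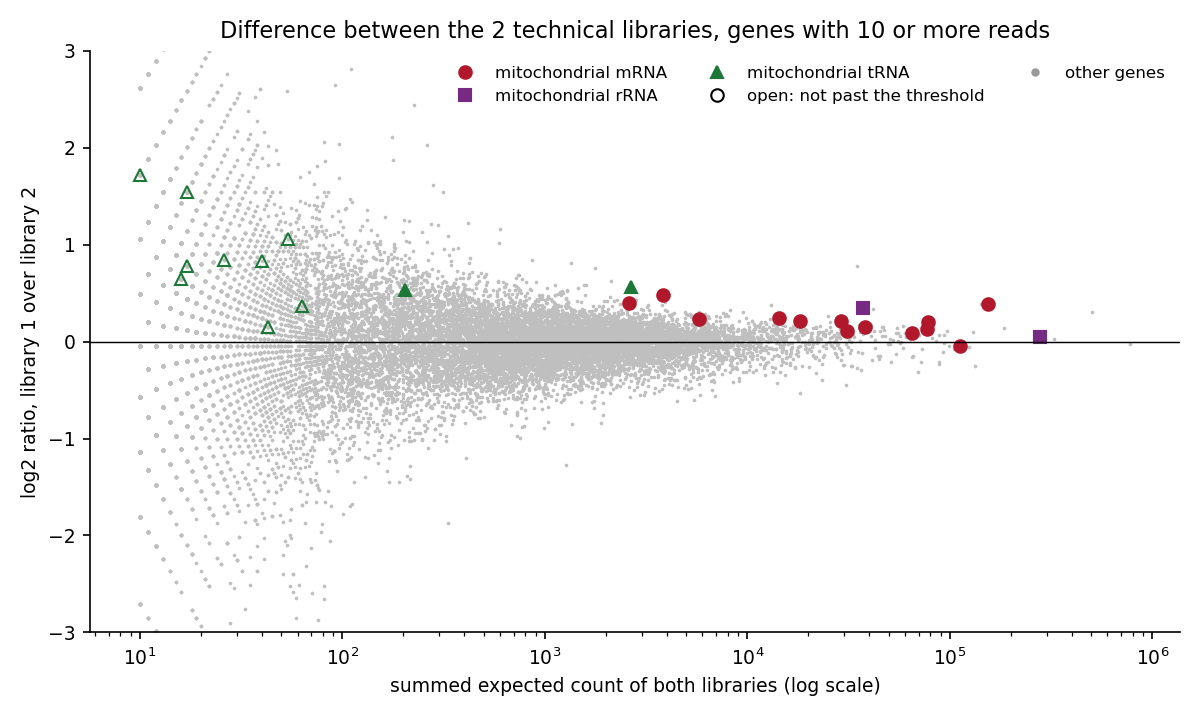
Log2 ratio of library 1 over library 2 against the summed expected count (log scale) for genes with 10 or more reads, mitochondrial genes coloured by class and other genes in grey; filled symbols passed the binomial test. Of the 26 mitochondrial genes 25 lie above 0, and 280 genes beyond ±3, all of them other genes, are not drawn.

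Among the nuclear genes of the same processes calls went in both directions in every list but complex IV, which had none lower. For several lists their share was near the 11.6% higher and 12.7% lower of all genes tested. In complexes I, III and IV the calls leaned towards higher in library 1, on few calls per list. Most of the nuclear subunits had 1000 or more summed reads, a depth at which 39.5% of all genes were called. The lean was not tested against genes of like depth. Of the 16 genes of DNA upkeep and transcription 2 were called higher and 4 lower in library 1, with a median log2 ratio of -0.07. Of the 29 of RNA processing and decay 3 were called higher and 3 lower, with a median of 0.03, and of the 23 of tRNA charging 2 were called higher and 4 lower, with a median of -0.02. Of the nuclear subunits, 7 of 36 in complex I, 4 of 9 in complex III, 4 of 10 in complex IV and 2 of 16 in complex V were called higher, and 3, 1, 0 and 2 were called lower. Their median log2 ratios lay between 0.02 and 0.09. All these medians were smaller than the 0.22 of the 13 mitochondrial mRNAs, a difference that was not tested.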

How the data were processed

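Per the labels, 2 technical libraries of poly(A) RNA from 1 biological sample were sequenced. Per the file headers, the authors deposited an expected count, a posterior mean count with its SD, an effective length and a TPM per gene on mm10 with GENCODE M21. They also deposited a whole-number count per gene on GENCODE M4. How this table was counted and filtered is not stated in the sources used here. TPM is as deposited. Rows naming no gene held 0.142% of reads in library 1 and 0.186% in library 2 and were left out of totals and tests.

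Expected counts were rounded and compared between libraries by an exact two-sided binomial test (summed count of 10 or more, Benjamini-Hochberg over all genes at 0.05). The test was first run on simulated counts. These held counting error only, so that check does not cover the further spread between these libraries. Log2 ratios add 0.5 to each count. A quasi-likelihood test needs replicated groups and was not possible. edgeR 4.0.16 and DESeq2 1.42.0 (R 4.3.3) gave scalings and exact tests as alternatives. Copies were found with blastn 2.17.0 among GENCODE M21 transcripts, at 90% identity or more over 100 bases, in place of a genome. Python 3.11.15, pandas 2.3.3 and scipy 1.17.1 were used.

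Members, gene lists and tests were chosen with earlier results of these data known. All 37 members could be named, and of each nuclear list the 3 highest and the lowest by mean TPM. Of the listed symbols, Prorp matched no row by that name, and the gene may have a row under another symbol. Values of 1 marker gene are not reported here. Counting limits cover counting error only. Poly(A) selection, short effective lengths and the sharing of reads with copies all bear on the values.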

Additional observations from a re-analysis of the deposited data

How the results depend on the processing

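Of 84 alternative values, 1 changed sign and 22 moved by more than the SD of the 2 libraries, or for counts of genes by over 1.5 times and for the members' median ratio by over 0.1. The other 61 stayed within these limits. Leaving out a library moves a mean of 2 by less than its SD in any case. The mitochondrial share of gene reads, 3.18% on average, was 3.02% and 3.34% with either library left out, 2.12% without the rRNAs, 3.63% with the copies added and 0.345% in the M4 table. mt-Ts1 lay 1.64 above the median mRNA on the log2 TPM scale, but at -0.067 by expected count per annotated kilobase, since the short effective length no longer enters. Pooling with the copies at 99% identity or more was chosen after the data were seen. It moved the log2 ratio of mt-Co3 over mt-Nd4l to 4.24 (3.87 as deposited) and of mt-Atp6 over mt-Co1 to 0.86 (0.25 as deposited). It moved mitochondrial over nuclear subunits to 3.90 in complex IV and 4.37 in complex V. The shares of mitochondrial mRNA reads with copies pooled were 16.5% in complex I, 10.2% in complex III, 53.0% in complex IV and 20.3% in complex V. Pooling mt-Nd4l with mt-Nd4 over their joint length gave 2.88 for mt-Co3 over mt-Nd4l. By expected count per kilobase, mitochondrial over nuclear subunits were 3.56 in complex III and 3.75 in complex V. Leaving out either library gave 0.37 to 0.80 for mt-Co3 over mt-Co1, 0.13 to 0.38 for mt-Atp6 over mt-Co1, and 57330 to 75660 reads on nuclear copies.

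The 16 members called higher in library 1 became 0 in the M4 table, where 8 were tested and 0 had an unadjusted p under 0.05. Over all genes there 9.86% were called and 22.9% had such a p. The part of a gene's M21 reads kept there fell with depth, to a median of 4.86% in library 1 for nuclear genes with 10000 or more. In that table mt-Co1 had 1438 reads in library 1 and 1423 in library 2, against 88373 and 65532 in M21. A difference between libraries in deep genes can thus shrink there, and its 0 calls cannot check the 16. With edgeR's exact test 0 members were called at the common dispersion and at 0.01, and 2 and 3 had an unadjusted p under 0.05. Over all genes 1.77% and 2.85% were called, and 9.06% and 11.6% had such a p. The 1 called lower became 0 under the same 3 settings and with copies pooled. The common dispersion was estimated with both libraries as 1 group, so it counts the difference under test as noise. The 0 members called at that setting therefore cannot check the 16 calls. The dispersion of 0.01 was a set value, not an estimate from the libraries. In the M4 table the members' median log2 ratio was 0.032. Under the other settings 15 to 17 members were called higher. M4 counts gave no level for mt-Co3, mt-Co2 or the ATP synthase genes, which are at 0 there. No paired analysis was possible because there is 1 group. Technical libraries of 1 sample leave the spread between animals unmeasured.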
